A study of Caenorhabditis elegans with 16 samples.

Results

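The comparison described here is the response of *Caenorhabditis elegans* to a diet of polysorbate 80 (P-80) while the gene *ech-6* was not silenced. It sets 4 samples of worms on empty vector bacteria with P-80 (EV + P-80) against 4 samples on empty vector bacteria with vehicle (EV + vehicle), over 19750 genes. The samples were chosen by their labels, which name the bacteria and the diet, and they are 8 of the 16 samples of the study. The other 8 samples were worms on *ech-6* RNAi bacteria with the same diets, which entered the fit and are used below only where the P-80 response itself was compared.

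All worms were of the N2 wild-type strain and were collected as day 1 adults, in pools of about 500 whole worms. From the first larval stage they ate *Escherichia coli* HT115 carrying either an empty vector, which silences no gene, or the *ech-6* RNAi construct. P-80 is a detergent in which oleic acid is bound to a water-soluble polymer. It was mixed into the liquid agar of the plates, and the vehicle was water. The study asked how a dietary excess of fat acts together with *ech-6*, an enoyl-CoA hydratase gene. These 2 groups give the response to P-80 without *ech-6* RNAi. The parts of the oleic acid, the polymer and the bacteria in that response were not tested.

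As background, fatty acids that worms take up in the intestine are activated to acyl-CoA and then oxidized, lengthened and desaturated, or stored in lipid droplets. Part of the fat leaves the intestine in yolk particles, which are made of vitellogenins and are taken up by oocytes. Intestinal lysosomes hold lipases, sphingolipid hydrolases and cathepsins that break down fat, membranes and protein. The cuticle is made by the hypodermis, and many collagen and molting genes are transcribed in pulses ahead of each larval molt and are low in the adult.

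Ribosomal RNA was depleted before strand-specific libraries were made, and the values are log2 CPM, where CPM is the read count of a gene relative to the size of its library after TMM normalization between libraries. The libraries held 16439967 to 23149851 reads on genes in EV + P-80 and 15306307 to 27484877 in EV + vehicle. Ribosomal RNA genes still took 17.8% ± 1.29 of the reads in EV + P-80 and 18.5% ± 1.36 in EV + vehicle (SD, n = 4 each). Of the 19750 genes, 13910 averaged at least 1 CPM over the 16 samples, and the log2 fold changes had a median standard error (SE) of 0.14. Marker genes of intestine, hypodermis, muscle, neurons, pharynx and germline were all detected, as in whole worms. In such samples fewer cells of a type and less RNA per cell cannot be told apart. The sources used here do not say whether the 4 pools of a group came from separate cultures, so the p-values measure the spread between these pools.

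*ech-6* (WBGene00001155; WBcel235 chromosome III, 9751552 to 9752883) was not silenced in these worms. It had 210, 237, 176 and 187 CPM in the 4 EV + P-80 samples, against 181, 169, 165 and 164 CPM in the 4 EV + vehicle samples. The groups overlapped, since EV + P-80 replicate 3 lay within the vehicle range. The log2 fold change (log2FC, EV + P-80 minus EV + vehicle) was 0.25 (SE 0.21, adjusted p = 0.476, limma's moderated test). This SE draws on the spread in all 16 samples, including those with *ech-6* silenced. A limma fit of the 8 EV samples alone gave an adjusted p of 0.0588. A two-sided exact permutation test of the 8 samples gave p = 0.0571, where the smallest p that 4 against 4 allows is 0.0286. Without replicate 3 of *ech-6* RNAi + vehicle the limma adjusted p was 0.0334 at the same log2FC of 0.25.

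A gene is called here when its adjusted p from limma's moderated test is under 0.05 (two-sided, Benjamini-Hochberg over all 19750 genes). By this rule 1377 genes (6.97%) were higher in EV + P-80 than in EV + vehicle and 1805 (9.14%) were lower, 16.1% in all. The median log2FC over all genes was -0.00. Genes that rose did so by little: their median log2FC was 0.35, a fold of 1.27. Genes that fell did so by more, with a median log2FC of -0.66, a fold of 0.631. A change of at least 2-fold was called in 88 genes higher (0.446%) and 568 lower (2.88%), and on log2(CPM + 1) in 35 higher and 285 lower. Among genes averaging at least 1 CPM over the 8 EV samples these were 59 higher and 454 lower. The balance depends on scaling: with each sample centred on its median gene, 2361 genes were higher and 1361 lower, so that 63.4% of the calls were higher, where the TMM scale gave 43.3%. The counts also rested on single libraries. They were 831 higher and 1152 lower without EV + vehicle replicate 4, 865 and 1159 without EV + P-80 replicate 4, and 893 and 1190 without EV + vehicle replicate 1. The number called at least 2-fold lower was 283 without EV + P-80 replicate 4. In the gene lists below, counts of 4 or fewer members also moved by up to 3 when a single library was left out. Of the 138 genes named below, 43 were chosen after their values were seen, and the others by a rule given with the methods.

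Overlap between the groups was counted apart from the test. In 3746 genes (19.0%) every sample of the 4 EV + P-80 pools lay on the same side of all 4 EV + vehicle pools, above them in 1620 (8.20%) and below them in 2126 (10.8%). Of the called genes, 1055 of the 1377 higher (76.6%) and 1498 of the 1805 lower (83.0%) did not overlap. Called genes with overlapping groups numbered 629, and 1193 genes that did not overlap were not called. Among higher genes the share that did not overlap grew with size up to a log2FC of 2: 242 of 351 did not overlap below a log2FC of 0.25, and 69 of 69 did not between 1 and 2. Among lower genes 185 of 225 did not overlap below 0.25, and 470 of 510 between 1 and 2. Changes beyond 3 on the log2 scale were called in 8 genes higher and 15 lower. These large changes were mostly in genes of very low level, with a median of 0.160 CPM for the higher and 0.0926 CPM for the lower.

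**Figure D1:**
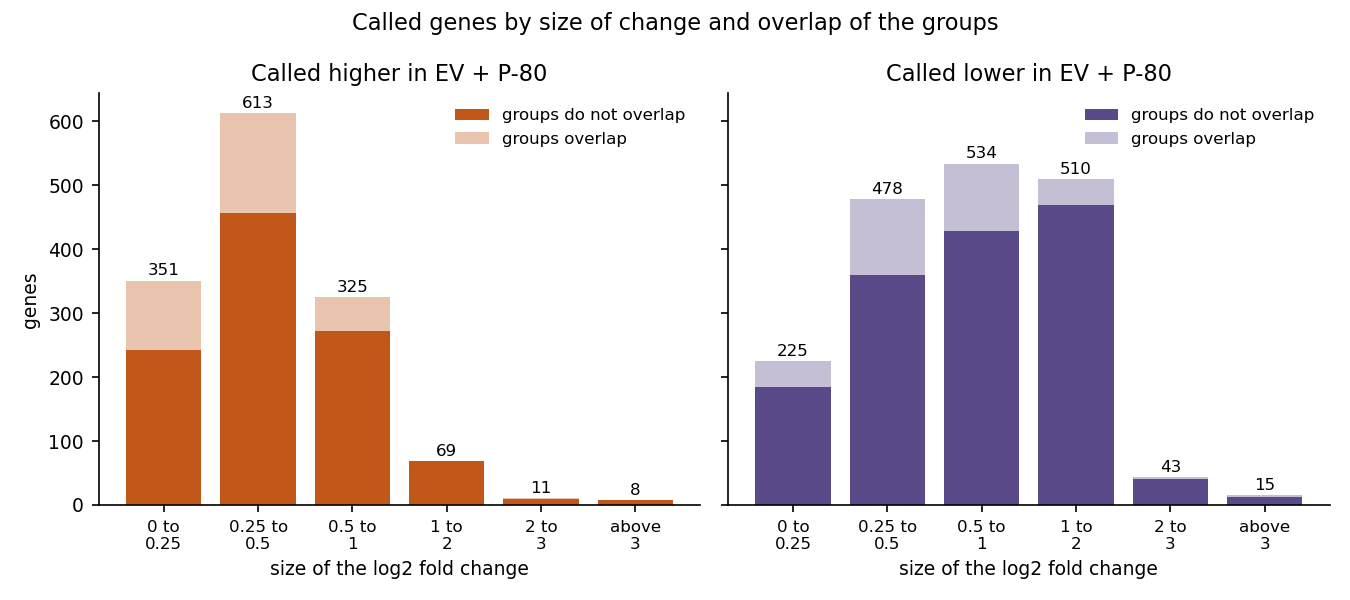
Number of called genes (vertical axis) by size of the log2FC of EV + P-80 over EV + vehicle (horizontal axis), for genes called higher (left panel) and lower (right panel), with the dark part of each bar showing genes whose 4 EV + P-80 and 4 EV + vehicle samples do not overlap. Higher calls peak at 613 genes between 0.25 and 0.5, and lower calls reach 510 genes between 1 and 2, where 69 genes were higher.

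Calls were also spread unevenly over chromosomes and levels. On the X chromosome 387 of 2808 genes (13.8%) were lower, and the median log2FC was -0.12. On the other nuclear chromosomes 7.38% (IV) to 9.25% (V) of the genes were lower, and of the 14 genes of mitochondrial DNA none was called in either direction by limma or with voom weights (2 had an unadjusted p under 0.05, and 2 were called higher without EV + vehicle replicate 3). Genes above 256 CPM were called higher in 17.9% and lower in 14.9% of cases, and genes of 1 to 4 CPM in 3.50% and 9.46%.

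The genes with the largest rises included several that were nearly silent with vehicle. *lact-6* (WBGene00007358; IV, 17429597 to 17431387), of the beta-lactamase domain family related to mammalian LACTB, had 22.4, 19.5, 20.7 and 20.2 CPM with P-80, against 0.195, 0.333, 0.220 and 0.298 CPM with vehicle. *ugt-15* (WBGene00008097; V, 12827519 to 12830114), a UDP-glycosyltransferase of the kind that conjugates small lipophilic molecules, had 6.85, 7.29, 8.11 and 5.24 CPM with P-80, against 0.130, 0.333, 0.330 and 0.179 CPM with vehicle. In both genes all P-80 samples were high and all vehicle samples were close to the detection limit, with a wide gap between the groups. The vehicle values rest on 3 to 7 reads a sample for *lact-6* and 2 to 9 for *ugt-15*, so their folds are imprecise. The log2FC values were 6.27 for *lact-6* (limma adjusted p = 2.98e-10) and 4.83 for *ugt-15* (adjusted p = 3.24e-09).

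*T16G1.7* (WBGene00011801; V, 12932941 to 12935112), which encodes a kinase-like protein, had 29.6, 24.6, 25.3 and 25.2 CPM with P-80, against 3.32, 3.85, 4.11 and 4.18 CPM with vehicle. Its neighbor *T16G1.6* (WBGene00011800; V, 12935538 to 12937174) had 12.4, 9.67, 9.61 and 10.4 CPM with P-80, against 2.87, 2.57, 2.90 and 3.40 CPM with vehicle. Neither gene overlapped between the groups, and P-80 replicate 1 was the highest sample in both. The third gene of the cluster to rise at least 2-fold, *T16G1.4*, averaged 2.68 CPM with P-80 and 1.23 CPM with vehicle. The limma log2FC values of the 3 genes were 2.76, 1.84 and 1.12 (adjusted p = 8.47e-12, 3.54e-08 and 0.00133). These genes are close relatives, so some of their reads may have been lost or misassigned. Of the 8 measured genes named T16G1, 4 were higher and 1 lower.

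*F42A10.7* (WBGene00018343; III, 6177916 to 6178686) had 79.9, 67.3, 79.0 and 78.1 CPM with P-80, against 16.7, 16.2, 17 and 16.1 CPM with vehicle. The vehicle samples were nearly equal and P-80 replicate 2 was the lowest of its group, still far above them. The log2FC was 2.20 (SE 0.08, limma adjusted p = 1.44e-12). *clec-5* (WBGene00016450; III, 4881888 to 4883606), a C-type lectin gene, had 45.3, 46.2, 45.6 and 51.5 CPM with P-80, against 12.1, 13.3, 12.9 and 11.6 CPM with vehicle. Its groups were as tight and as well separated, with a log2FC of 1.92 (SE 0.07, adjusted p = 1.44e-12). *dhs-26* (WBGene00000989; X, 3360722 to 3362493), a short-chain dehydrogenase gene, had 4.04, 3.80, 2.92 and 5.19 CPM with P-80, against 0.977, 1.19, 0.660 and 0.657 CPM with vehicle. It did not overlap either, and its log2FC was 2.20 (SE 0.24, adjusted p = 1.09e-05).

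Among the largest falls, *C17F4.7* (WBGene00015913; II, 3245087 to 3246015), a gene with no assigned role here, had 7.89, 8.83, 5.01 and 7.81 CPM with P-80, against 165, 158, 160 and 153 CPM with vehicle. *irg-5* (WBGene00009429; V, 13737010 to 13738474), an infection response gene of the intestine, had 3.12, 2.34, 1.82 and 2.84 CPM with P-80, against 36.9, 27.8, 32.6 and 35.6 CPM with vehicle. *B0024.4* (WBGene00007097; V, 10297399 to 10298985) had 5.57, 3.53, 5.18 and 3.05 CPM with P-80, against 24.7, 33.1, 28.4 and 23.3 CPM with vehicle. All P-80 samples of these 3 genes were low and no sample came near the other group. The log2FC values were -4.46, -3.73 and -2.69 (limma adjusted p = 8.22e-15, 3.78e-11 and 6.50e-09).

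*scav-5* (WBGene00011076; X, 9858365 to 9861738), of the CD36 scavenger receptor family that includes fatty acid transporters in mammals, had 1.53, 1.85, 1.42 and 2.41 CPM with P-80, against 7.95, 8.79, 9.72 and 9.73 CPM with vehicle. The groups were far apart, with a log2FC of -2.34 (SE 0.17, limma adjusted p = 4.49e-08). *asp-17* (WBGene00012683; V, 19035723 to 19037322), an aspartyl protease gene, had 0.551, 0.442, 0.620 and 0.375 CPM with P-80, against 3.13, 2.90, 2.53 and 2.27 CPM with vehicle. It also fell in every pool, by 2.43 on the log2 scale (limma adjusted p = 1.90e-05). The collagen gene *col-128* averaged 1.23 CPM with P-80 and 4.39 CPM with vehicle, a log2FC of -2.03 (adjusted p = 0.00283).

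**Figure D2:**
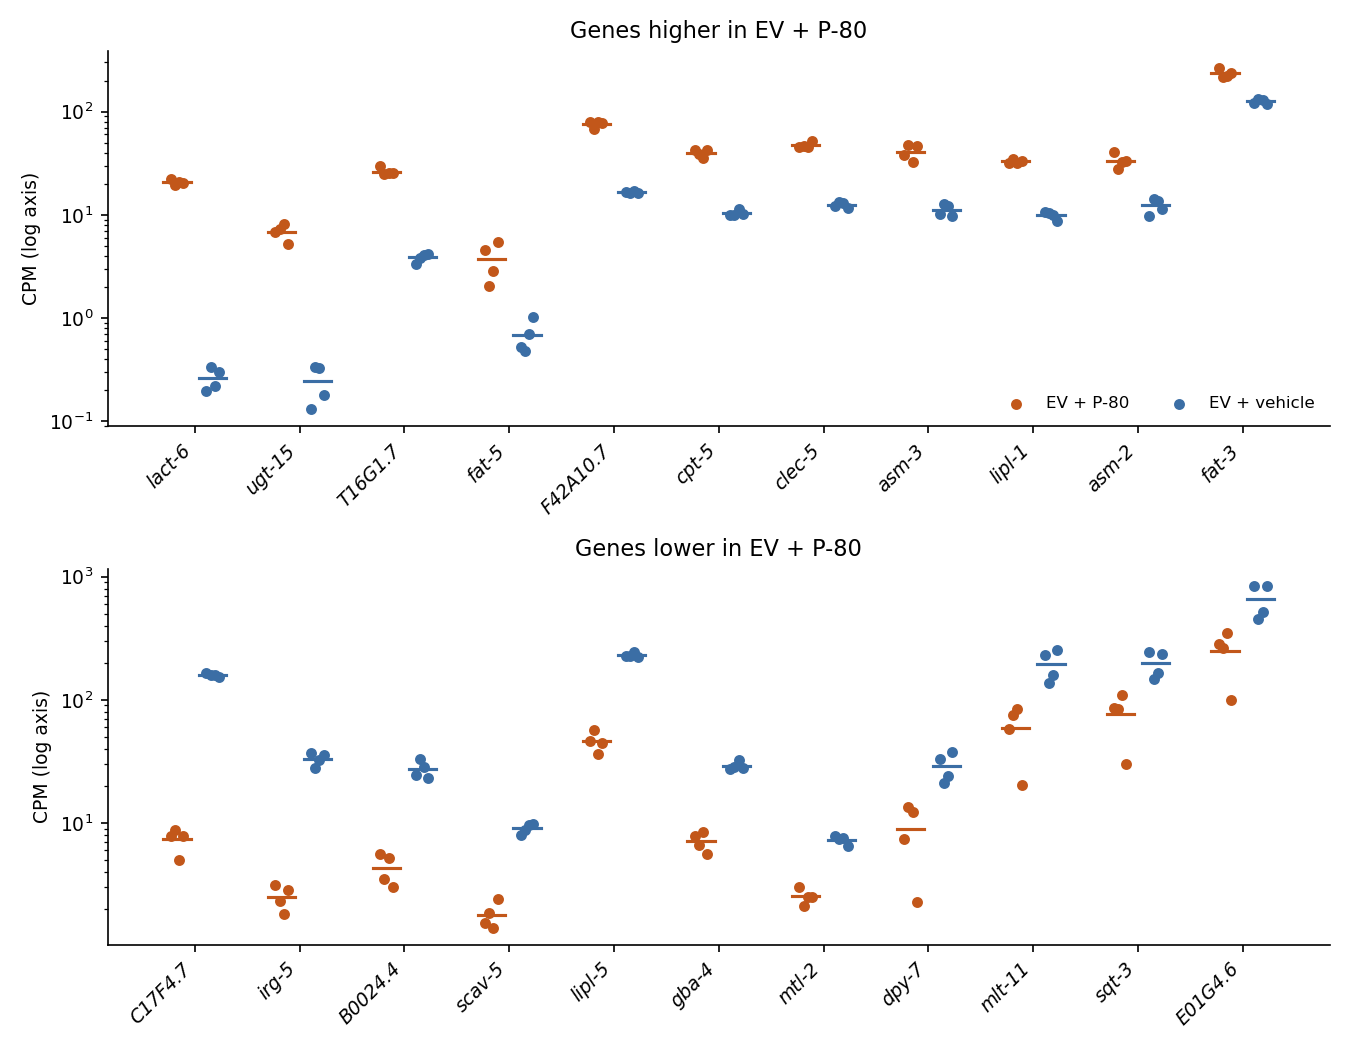
CPM on a log axis in each of the 4 EV + P-80 samples (orange points, left) and the 4 EV + vehicle samples (blue points, right) for 11 genes higher and 11 genes lower with P-80, with a line at each group's mean. The groups do not overlap in any of these genes, and in the molting and cuticle genes *dpy-7*, *mlt-11*, *sqt-3* and *E01G4.6* one EV + P-80 sample, replicate 4, lies well below the other 3.

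Genes that build and modify fatty acids moved in part. Of the 7 fatty acid desaturase genes 3 were higher (42.9% beside 6.97% of all genes) and none lower, with a median log2FC of 0.31. *fat-5* (WBGene00001397; V, 17725004 to 17726818), whose enzyme desaturates palmitic acid, had 4.59, 2.03, 2.88 and 5.46 CPM with P-80, against 0.521, 0.475, 0.697 and 1.01 CPM with vehicle. It varied among the P-80 samples, but the lowest of them was above the highest vehicle sample. *fat-3* (WBGene00001395; IV, 9803023 to 9806119), which acts early in making polyunsaturated fatty acids, had 265, 216, 222 and 235 CPM with P-80, against 120, 132, 130 and 120 CPM with vehicle. *fat-1* (WBGene00001393), the omega-3 desaturase gene, had 458, 382, 396 and 419 CPM with P-80, against 336, 346, 336 and 317 CPM with vehicle. Neither gene overlapped, and P-80 replicate 1 was the highest sample of both. Limma gave log2FC values of 2.40 for *fat-5* (adjusted p = 1.15e-04), 0.90 for *fat-3* (adjusted p = 2.17e-08) and 0.31 for *fat-1* (adjusted p = 8.92e-04).

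The genes of the enzymes that make oleic acid from stearic acid did not pass the test. *fat-6* averaged 205 ± 31.5 CPM with P-80 and 175 ± 7.91 CPM with vehicle (SD, n = 4 each), with overlapping groups and a log2FC of 0.22 (limma adjusted p = 0.264). *fat-7* averaged 8.19 ± 2.11 CPM with P-80 and 5.13 ± 0.546 CPM with vehicle, again overlapping, with a log2FC of 0.64 (adjusted p = 0.193). In a fit of the 8 EV samples alone *fat-7* passed (adjusted p = 0.0359).

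Of the 9 elongase genes 4 were higher and 1 lower (44.4% and 11.1% beside 6.97% and 9.14% of all genes), with a median log2FC of 0.14. The higher count was 2 without EV + P-80 replicate 1, EV + vehicle replicate 1 or EV + vehicle replicate 4. *elo-2* (WBGene00001240; IV, 17466062 to 17467408), which lengthens palmitic acid, had 156, 154, 145 and 145 CPM with P-80, against 104, 107, 114 and 103 CPM with vehicle. The spread within each group was small beside the gap, and the log2FC was 0.49 (SE 0.05, limma adjusted p = 1.80e-06). *elo-5*, which makes branched-chain fatty acids, averaged 168 CPM with P-80 and 133 CPM with vehicle. *elo-3* averaged 48.8 CPM with P-80 and 58.9 CPM with vehicle and was the elongase gene that fell, by 0.27 on the log2 scale (limma adjusted p = 0.00321).

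The genes of fatty acid synthesis itself changed little. *pod-2*, for acetyl-CoA carboxylase, averaged 1103 ± 30.5 CPM with P-80 and 951 ± 23.9 CPM with vehicle (log2FC 0.21, limma adjusted p = 6.82e-04), which was the single call among 5 genes and missed the threshold after quantile normalization (adjusted p = 0.0537). *fasn-1*, for fatty acid synthase, averaged 984 ± 20.3 CPM with P-80 and 1064 ± 64.3 CPM with vehicle, with overlapping groups and a log2FC of -0.11 (adjusted p = 0.0657). It passed in a robust fit, after quantile normalization, and without EV + vehicle replicate 2 or 3 (adjusted p = 0.0377, 0.00224, 0.0395 and 0.0294). Of 14 regulators of fat synthesis and breakdown 1 was higher and 3 were lower.

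*mxl-3* (WBGene00003511; X, 13349639 to 13350804) and *hlh-30* (WBGene00020930; IV, 4014793 to 4034951) encode transcription factors known in worms to act in opposite directions on lysosomal lipase genes, *mxl-3* as a repressor in fed worms and *hlh-30* as an activator in fasting. *mxl-3* had 38.4, 38.1, 33.9 and 42.4 CPM with P-80, against 27.3, 23.9, 26.5 and 25.3 CPM with vehicle. *hlh-30* had 44.9, 42.7, 45.9 and 38.2 CPM with P-80, against 58.8, 53.2, 56.9 and 55.4 CPM with vehicle. No sample overlapped in either gene, with *mxl-3* higher and *hlh-30* lower in every P-80 pool. By limma the log2FC values were 0.57 (adjusted p = 7.68e-05) and -0.39 (adjusted p = 0.00130). *mdt-15*, for a Mediator subunit needed for desaturase expression, averaged 154 CPM with P-80 and 175 CPM with vehicle. Its log2FC of -0.19 (adjusted p = 0.00707) did not pass when samples were centred on their median gene (adjusted p = 0.119).

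Storage genes showed few calls. Of 19 genes of triglyceride synthesis and lipid droplets 1 was higher and 2 lower, shares of 5.26% and 10.5% beside 6.97% and 9.14% of all genes, and the median log2FC was -0.00. Of 9 genes for intracellular lipid-binding proteins 2 were higher (22.2% beside 6.97% of all genes) and none lower. *lbp-2* (WBGene00002254; X, 3260610 to 3261470) averaged 219 ± 8.74 CPM with P-80 and 164 ± 8.03 CPM with vehicle, and its neighbor *lbp-1* (WBGene00002253; X, 3259142 to 3259812) 23.8 ± 2.95 CPM with P-80 and 14.3 ± 2.33 CPM with vehicle. Both were separate between the groups, with limma log2FC values of 0.42 (adjusted p = 2.49e-05) and 0.74 (adjusted p = 8.88e-04).

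Of 22 genes of the methionine cycle and of the synthesis of phosphatidylcholine, the main membrane lipid, 5 were higher (22.7% beside 6.97% of all genes) and none lower, with a median log2FC of 0.05. *pmt-1*, for the enzyme that starts the methylation of phosphoethanolamine, averaged 477 CPM with P-80 and 401 CPM with vehicle. *pcyt-1* averaged 43.0 CPM with P-80 and 34 CPM with vehicle, and *cept-1* 38.6 CPM with P-80 and 29.9 CPM with vehicle. These encode the enzymes that make CDP-choline and that use it. The cystathionine gamma-lyase gene *cth-2* averaged 188 CPM with P-80 and 147 CPM with vehicle. None of these 4 genes overlapped, and their limma log2FC values ran from 0.25 (*pmt-1*) to 0.37 (*cept-1*), with adjusted p at or below 0.00325.

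Fatty acid oxidation genes moved both ways. *cpt-5* (WBGene00008629; V, 13873195 to 13875888), of the carnitine acyltransferase family that carries fatty acids into mitochondria, had 42.3, 38.9, 35.7 and 42.2 CPM with P-80, against 9.90, 9.93, 11.5 and 10.3 CPM with vehicle. *cpt-4* (WBGene00019644; V, 5023706 to 5027723), of the same family, had 19.6, 16.6, 24.9 and 11.5 CPM with P-80, against 35.2, 29.7, 31.6 and 39.6 CPM with vehicle. The 2 genes moved in opposite directions in every pool, by 1.93 (limma adjusted p = 3.52e-10) and -0.95 (adjusted p = 6.96e-04) on the log2 scale. *acdh-2* (WBGene00015894; II, 5544778 to 5547492), an acyl-CoA dehydrogenase gene, had 26.3, 51.1, 20.2 and 22.4 CPM with P-80, against 11.1, 8.69, 9.90 and 9.55 CPM with vehicle. All P-80 samples were above the vehicle samples, replicate 2 by far the most, and the log2FC was 1.51 (SE 0.27, adjusted p = 0.00111).

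Of 20 acyl-CoA dehydrogenase and oxidase genes 4 were higher and 7 lower (20% and 35% beside 6.97% and 9.14% of all genes). The higher count was 1 without EV + P-80 replicate 1 or EV + vehicle replicate 4, and 2 without EV + P-80 replicate 2, EV + P-80 replicate 4 or EV + vehicle replicate 1. Of 29 other beta-oxidation genes 3 were higher and 5 lower (10.3% and 17.2%). The lower count was 3 without EV + P-80 replicate 4 or EV + vehicle replicate 4. *acdh-6* averaged 9.43 CPM with P-80 and 17.2 CPM with vehicle, a log2FC of -0.91 (limma adjusted p = 0.00528). Of 23 genes for fatty acid activation 2 were higher and 7 lower (30.4% beside 9.14% of all genes), and 4 were lower without EV + P-80 replicate 1 or EV + vehicle replicate 1. *acs-3*, for an acyl-CoA synthetase of seam cells and intestine, averaged 5.58 CPM with P-80 and 9.63 CPM with vehicle, a log2FC of -0.80 (adjusted p = 1.56e-04). *acs-20*, needed for the lipid barrier of the cuticle, averaged 39.7 CPM with P-80 and 63.0 CPM with vehicle. Its log2FC of -0.70 (adjusted p = 0.0129) missed the threshold without EV + vehicle replicate 1 (adjusted p = 0.0532).

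Lysosomal lipase genes split. *lipl-5* (WBGene00022642; V, 385746 to 387740) had 46.2, 56.4, 36.5 and 44.8 CPM with P-80, against 228, 227, 243 and 223 CPM with vehicle. *lipl-1* (WBGene00010062; V, 12919986 to 12921692) had 31.6, 34.9, 31.5 and 33.4 CPM with P-80, against 10.6, 10.5, 10 and 8.72 CPM with vehicle. These 2 genes of the same family moved in opposite directions with tight groups and no overlap. The log2FC values by limma were -2.34 for *lipl-5* (adjusted p = 5.35e-12) and 1.73 for *lipl-1* (adjusted p = 1.09e-09). *lipl-5* was the most abundant of the 7 listed genes, *lipl-1* to *lipl-7*, with vehicle. The summed level of these 7 genes was therefore lower with P-80, at 104 to 134 CPM, against 278 to 299.6 CPM with vehicle. *lipl-8* was not in the list.

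The other listed members changed less. *lipl-2* averaged 14.1 CPM with P-80 and 23.7 CPM with vehicle, and *lipl-6* 1.19 CPM with P-80 and 3.13 CPM with vehicle; both fell without overlap, by 0.76 and 1.59 on the log2 scale (limma adjusted p = 1.33e-04 and 0.00521). *lipl-7* averaged 20.2 CPM with P-80 and 16.9 CPM with vehicle, a log2FC of 0.25 (adjusted p = 0.0187) that missed the threshold without EV + P-80 replicate 2, EV + vehicle replicate 1 or EV + vehicle replicate 2 (adjusted p = 0.0649, 0.0524 and 0.0514). *lipl-3* had 1.16, 1.15, 0.753 and 1.07 CPM with P-80, against 0.456, 1.05, 0.807 and 0.716 CPM with vehicle. *lipl-4* had 1.59, 0.839, 1.46 and 1.44 CPM with P-80, against 1.04, 1.19, 1.72 and 1.37 CPM with vehicle. Both overlapped and neither passed, with log2FC values of 0.48 (adjusted p = 0.242) and -0.01 (adjusted p = 0.983), and *lipl-4* rested on 16 to 47 reads a sample.

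Sphingolipids are membrane lipids that are taken apart in lysosomes. Of 15 genes for their breakdown 4 were higher and 1 lower (26.7% and 6.67% beside 6.97% and 9.14% of all genes), with a median log2FC of 0.12. *asm-3* (WBGene00000213; IV, 520214 to 523809), an acid sphingomyelinase gene, had 37.6, 46.9, 32.1 and 46.2 CPM with P-80, against 10.2, 12.6, 12.1 and 9.73 CPM with vehicle. *asm-2* (WBGene00000212; X, 11321079 to 11324251), another acid sphingomyelinase gene, had 40.8, 28.0, 32.5 and 32.9 CPM with P-80, against 9.71, 14.3, 13.8 and 11.5 CPM with vehicle. *asah-1* (WBGene00010769; I, 12505114 to 12507569), for acid ceramidase, had 51.0, 40.4, 40.0 and 44.5 CPM with P-80, against 21.8, 24.5, 23.2 and 21.4 CPM with vehicle. In all 3 genes every P-80 sample was well above every vehicle sample. Limma gave log2FC values of 1.86 for *asm-3*, 1.45 for *asm-2* and 0.95 for *asah-1* (adjusted p = 2.98e-06, 1.74e-07 and 1.63e-05).

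The glucocerebrosidase-like gene *gba-4* (WBGene00021160; IV, 5344592 to 5350897) was the member that fell. It had 7.77, 6.67, 8.51 and 5.56 CPM with P-80, against 27.7, 28.7, 32.3 and 28.1 CPM with vehicle. The groups were far apart, with a log2FC of -2.05 (SE 0.14, limma adjusted p = 1.18e-08). Among 16 genes of sphingolipid synthesis 2 were higher and 4 lower, and the lower count was 1 without EV + P-80 replicate 4 or EV + vehicle replicate 4 and 2 without EV + vehicle replicate 1. *sptl-3*, for a subunit of the enzyme that starts the pathway, averaged 70.9 CPM with P-80 and 58.2 CPM with vehicle, and *cgt-3*, for ceramide glucosyltransferase, 80.7 CPM with P-80 and 97.8 CPM with vehicle. They moved apart by 0.28 and -0.28 on the log2 scale (limma adjusted p = 0.00410 and 3.20e-04).

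Of 26 cathepsin genes 6 were higher (23.1% beside 6.97% of all genes) and 1 lower, with a median log2FC of 0.09. The higher count was 4 without EV + P-80 replicate 1 and 10 without EV + P-80 replicate 2. *cpr-5* (WBGene00000785; V, 1132598 to 1134036), of the cathepsin B type, had 453, 337, 398 and 417 CPM with P-80, against 252, 255, 254 and 229 CPM with vehicle. Every P-80 sample was above every vehicle sample, and the log2FC was 0.69 (SE 0.08, limma adjusted p = 1.40e-05). *cpr-4* had 231, 148, 227 and 259 CPM with P-80, against 151, 148, 149 and 135 CPM with vehicle, and *cpr-1* had 73.7, 53.5, 72.6 and 72.2 CPM with P-80, against 52.2, 51.2, 50.3 and 43.9 CPM with vehicle. In both of these genes P-80 replicate 2 was at the vehicle level while the other 3 were higher. *cpr-4* was called, with a log2FC of 0.54 (adjusted p = 0.0271), and lost the call without EV + P-80 replicate 1 or 4 (adjusted p = 0.0770 and 0.0936) or EV + vehicle replicate 1 or 4 (adjusted p = 0.0537 and 0.0822). *cpr-1* was not called, with a log2FC of 0.45 (adjusted p = 0.0808), and passed without EV + P-80 replicate 2 (adjusted p = 0.0432), without *ech-6* RNAi + P-80 replicate 1 (0.0204), among the EV samples alone (0.0121) and with samples centred on the median gene (0.0296).

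The aspartyl protease genes *asp-2* and *asp-12* were higher too. *asp-2* averaged 427 ± 24.9 CPM with P-80 and 331 ± 8.35 CPM with vehicle, and *asp-12* 2.84 ± 0.490 CPM with P-80 and 1.2 ± 0.200 CPM with vehicle. Both were separate between the groups, with limma log2FC values of 0.36 (adjusted p = 1.45e-05) and 1.23 (adjusted p = 4.35e-04). Of 21 genes for the vacuolar ATPase, the pump that acidifies lysosomes, 10 were higher (47.6%) and 1 lower. The rises were small, the median log2FC being 0.14, and the count was 5 without EV + P-80 replicate 4 and 6 without EV + vehicle replicate 4. *vha-6*, for the intestinal form of the a subunit, averaged 539 CPM with P-80 and 444 CPM with vehicle. *unc-32*, for another form of that subunit, averaged 229 CPM with P-80 and 272 CPM with vehicle and was the member that fell (log2FC values 0.28 and -0.25, adjusted p = 3.74e-04 and 0.00508). Of 32 autophagy genes 2 were higher and 5 lower, shares of 6.25% and 15.6%, and 3 were lower without EV + P-80 replicate 4, EV + vehicle replicate 1 or EV + vehicle replicate 4. *lgg-1*, for the ubiquitin-like protein of autophagosomes, averaged 299.6 CPM with P-80 and 263 CPM with vehicle (adjusted p = 0.00397).

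**Figure D3:**
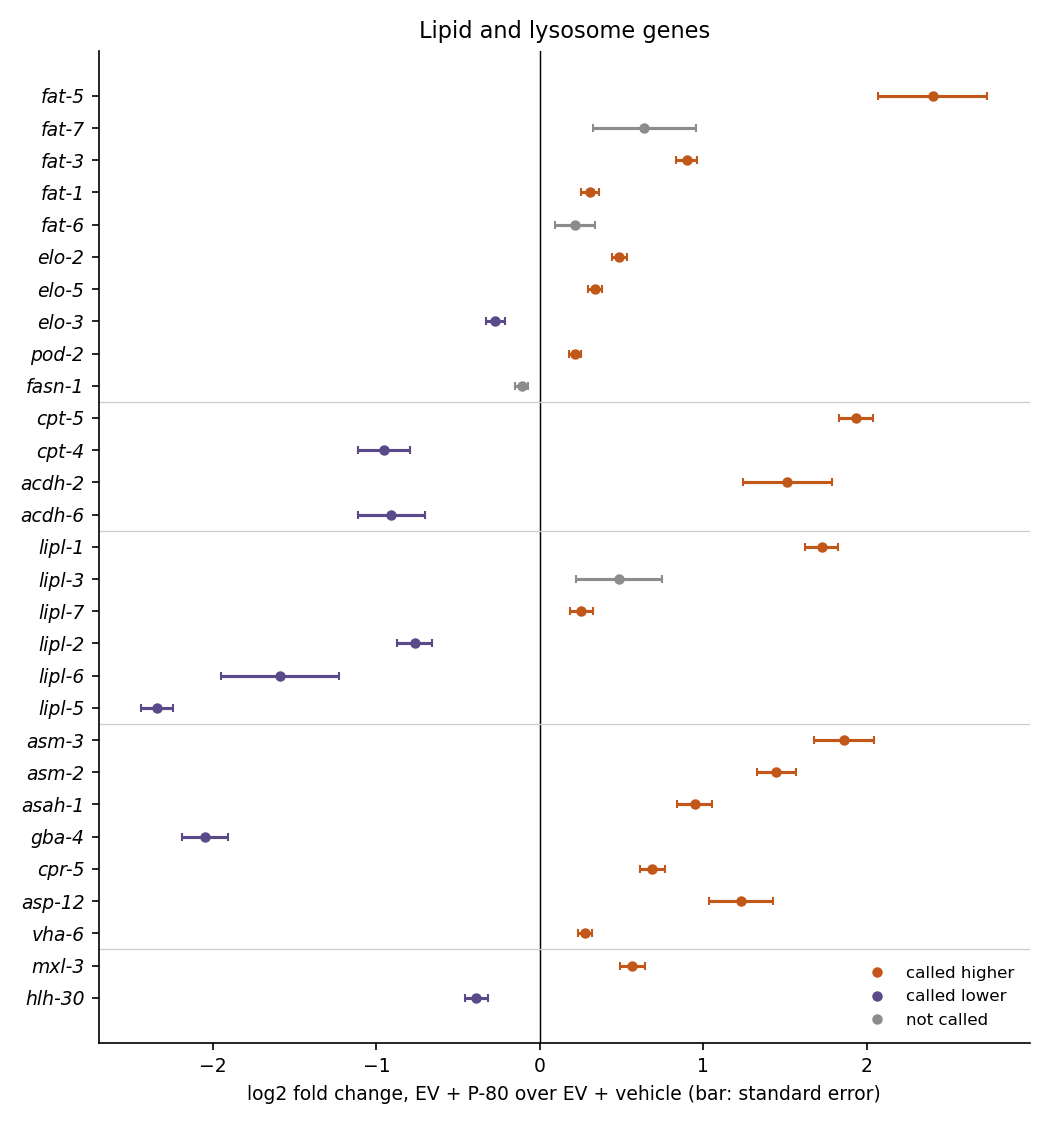
Log2 fold change of EV + P-80 over EV + vehicle (horizontal axis, points) with its standard error (bars) for fatty acid synthesis, oxidation, lysosomal lipase, sphingolipid and protease genes and the regulators *mxl-3* and *hlh-30*, from limma with all 16 samples. Values run from 2.40 (*fat-5*) to -2.34 (*lipl-5*), and genes of the same family, such as *cpt-5* and *cpt-4* or *lipl-1* and *lipl-5*, lie on opposite sides of 0.

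All 6 vitellogenin genes rose. *vit-5* (WBGene00006929; X, 3403471 to 3408603) had 3566, 2954, 2755 and 3950 CPM with P-80, against 1579, 1879, 1697 and 1262 CPM with vehicle. *vit-1* (WBGene00006925; X, 7727889 to 7733168) had 1557, 1315, 1245 and 1826 CPM with P-80, against 651, 747, 731 and 552 CPM with vehicle. P-80 replicate 4 was the highest and vehicle replicate 4 the lowest sample in both, and in none of the 6 genes did the groups overlap. By limma the log2FC values were 1.14 for *vit-1* (adjusted p = 3.80e-04), 1.04 for *vit-5* (adjusted p = 1.02e-04), 0.86 for *vit-4*, 0.82 for *vit-3*, 0.74 for *vit-6* and 0.66 for *vit-2*, with adjusted p of 0.00142 or less. The 6 genes together held 16537, 13750, 13348 and 18566 CPM with P-80, against 8654, 9980, 9148 and 7065 CPM with vehicle. Some of these genes are near-identical copies, and reads that match several places were not counted at the counter's default settings. The levels of such copies, and their sum, may therefore be too low.

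Of 10 genes for vitellogenin regulators and the yolk receptor 2 were higher and 2 lower (20% each, beside 6.97% and 9.14% of all genes). Their log2FC values ran from -0.95 to 0.27. *ceh-60*, for a homeodomain factor that activates vitellogenin genes, averaged 18.3 CPM with P-80 and 15.4 CPM with vehicle, and *rme-2*, for the yolk receptor of oocytes, 402 CPM with P-80 and 332 CPM with vehicle. Their log2FC values of 0.24 and 0.27 (limma adjusted p = 0.0289 and 0.0369) missed the threshold when single libraries were left out, with adjusted p up to 0.0923 for *ceh-60* (without EV + P-80 replicate 2) and 0.136 for *rme-2* (without EV + vehicle replicate 1). *lin-29*, for a zinc finger factor of the larval-to-adult switch, averaged 11.1 ± 2.66 CPM with P-80 and 17 ± 2.03 CPM with vehicle, without overlap, a log2FC of -0.63 (adjusted p = 0.00272).

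Of 24 genes of glycolysis and gluconeogenesis 9 were higher (37.5% beside 6.97% of all genes) and none lower, with a median log2FC of 0.09, and 5 were higher without EV + vehicle replicate 4. *pck-2*, for phosphoenolpyruvate carboxykinase, averaged 1135 ± 47.7 CPM with P-80 and 952 ± 11.2 CPM with vehicle, and *pfk-1.1*, for phosphofructokinase, 207 ± 8.50 CPM with P-80 and 179 ± 3.53 CPM with vehicle. Of 28 genes of the citric acid and glyoxylate cycles 3 were higher and 2 lower, with a median log2FC of 0.00. *idh-1*, for an NADP-dependent isocitrate dehydrogenase, averaged 294 CPM with P-80 and 219 CPM with vehicle, and *icl-1*, for the glyoxylate enzyme that lets worms make sugar from fat, 767 CPM with P-80 and 976 CPM with vehicle. The limma log2FC values of these 4 genes were 0.25, 0.21, 0.42 and -0.35, each with an adjusted p of 8.48e-04 or less.

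Of 76 nuclear genes of the respiratory chain 10 were higher (13.2% beside 6.97% of all genes) and none lower, with a median log2FC of 0.07. That count was 1 without EV + P-80 replicate 1, 4 without EV + P-80 replicate 4 or EV + vehicle replicate 4, 5 without EV + vehicle replicate 1, and 32 with samples centred on their median gene. Of 15 genes for the breakdown of branched-chain amino acids 7 were higher (46.7%) and none lower, with a median log2FC of 0.13. The count was 3 without EV + P-80 replicate 1 or EV + vehicle replicate 4, and 4 without EV + P-80 replicate 2 or EV + vehicle replicate 1. *alh-8*, for methylmalonate semialdehyde dehydrogenase, averaged 569 CPM with P-80 and 478 CPM with vehicle, and *ech-7*, for an enoyl-CoA hydratase, 45.6 CPM with P-80 and 35.2 CPM with vehicle (log2FC values 0.25 and 0.38, limma adjusted p = 0.00322 and 0.00224). *kynu-1*, for the tryptophan-breakdown enzyme kynureninase, averaged 116 CPM with P-80 and 83.4 CPM with vehicle and was the call among 9 tryptophan genes (log2FC 0.48, adjusted p = 2.24e-05).

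Genes of the response to microbes moved in both directions. Of the 7 infection response genes named irg 1 was higher and 3 lower (14.3% and 42.9% beside 6.97% and 9.14% of all genes). The higher count was 0 without a variance trend, among the EV samples alone and without EV + P-80 replicate 1. In no irg gene did all P-80 samples lie above all vehicle samples. *irg-7*, needed in worms for the intestinal response to *Pseudomonas*, had 875, 946, 974 and 932 CPM with P-80, against 1161, 1133, 1150 and 1176 CPM with vehicle. The groups were apart, with a log2FC of -0.31 (SE 0.04, limma adjusted p = 8.12e-05). Of 10 lysozyme genes none was called in either direction by limma or with voom weights (3 had an unadjusted p under 0.05), and 1 was higher without EV + P-80 replicate 2. Among 58 genes for saposin-like proteins and antimicrobial peptides 14 were higher (24.1%) and 8 lower (13.8%).

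The counts of the families below stand beside 6.97% of all genes higher and 9.14% lower. Of 22 fungus-induced peptide genes (fip and fipr) 10 were higher and 1 lower. *fipr-2* (WBGene00009097; V, 12365348 to 12365869) had 21.5, 21.5, 19.3 and 24.9 CPM with P-80, against 12.2, 14.8, 14.6 and 12.5 CPM with vehicle. *fipr-13* averaged 11.2 CPM with P-80 and 6.63 CPM with vehicle, again with no overlap (log2FC values 0.69 and 0.76, limma adjusted p = 1.32e-04 and 5.19e-04). Of the 7 caenacin genes (cnc), which encode epidermal antimicrobial peptides, none was higher and 3 were lower. Of 20 saposin-like genes (spp) 2 were higher and 4 lower, and of 5 antibacterial factor genes (abf) 1 was higher and none lower. Differences between these families were not tested. *cnc-3* (WBGene00000557; V, 1448004 to 1448792) had 1.59, 1.72, 1.68 and 0.963 CPM with P-80, against 6.06, 4.09, 3.78 and 6.27 CPM with vehicle, and *cnc-2* averaged 3.94 CPM with P-80 and 9.20 CPM with vehicle. Both were low in every P-80 pool, by -1.75 and -1.24 on the log2 scale (limma adjusted p = 6.32e-05 and 7.86e-04). The fipr genes are close relatives, so some of their reads may have been lost or misassigned.

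Of 163 C-type lectin genes, many of which respond to bacteria, 20 were higher (12.3%) and 12 lower (7.36%), and the higher count was 12 without EV + P-80 replicate 4 or EV + vehicle replicate 4 and 13 without EV + P-80 replicate 1. Beside *clec-5*, *clec-218* (WBGene00020938; V, 8307942 to 8310766) had 47.4, 38.0, 40.1 and 40.9 CPM with P-80, against 13.5, 14.5, 14.4 and 10.6 CPM with vehicle. *clec-50* (WBGene00012253; V, 19752399 to 19755368) had 105, 98.0, 94.0 and 98.7 CPM with P-80, against 182, 189, 183 and 172 CPM with vehicle. Both had tight groups that did not overlap, with limma log2FC values of 1.66 (adjusted p = 4.63e-08) and -0.88 (adjusted p = 4.61e-08). *clec-180* averaged 12.5 ± 5.32 CPM with P-80 and 37.1 ± 8.29 CPM with vehicle (log2FC -1.68, adjusted p = 6.44e-04). Of the 9 *lact* family genes *lact-6* was the single rise, and 3 were lower, among them *lact-2* with 32.3 CPM with P-80 and 54.7 CPM with vehicle and *lact-8* with 15.3 CPM with P-80 and 28.9 CPM with vehicle (adjusted p = 4.84e-06 and 0.00379).

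Among detoxification families, UDP-glycosyltransferase genes were called in both directions. Of 64 such genes 15 were higher (23.4%) and 11 lower (17.2%), beside 6.97% and 9.14% of all genes. *ugt-63* averaged 14.1 ± 2.83 CPM with P-80 and 6.25 ± 1.33 CPM with vehicle, a log2FC of 1.18 (limma adjusted p = 7.84e-05). *ugt-10* averaged 0.721 CPM with P-80 and 1.87 CPM with vehicle, and *ugt-57* 1.02 CPM with P-80 and 2.94 CPM with vehicle; they fell by 1.41 and 1.65 on the log2 scale (limma adjusted p = 0.00110 and 0.00841). Of 74 cytochrome P450 genes 7 were higher and 9 lower, shares of 9.46% and 12.2% near those of all genes, with 4 higher without EV + P-80 replicate 4. *cyp-25A3* averaged 27.5 CPM with P-80 and 17.8 CPM with vehicle, and *cyp-37B1* 1.55 CPM with P-80 and 5.09 CPM with vehicle (log2FC values 0.63 and -1.88, adjusted p = 4.01e-05 and 5.80e-04).

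Of 48 glutathione S-transferase genes 5 were higher and 2 lower (10.4% and 4.17% beside 6.97% and 9.14% of all genes). *gst-41* (WBGene00001789; V, 7398396 to 7399302) had 2.69, 2.61, 2.57 and 3 CPM with P-80, against 1.04, 1.28, 0.880 and 0.955 CPM with vehicle, clear of overlap at a low level. *gst-4*, a gene often used to read oxidative stress in worms, averaged 44.0 CPM with P-80 and 32.9 CPM with vehicle (log2FC values 1.39 and 0.41, limma adjusted p = 2.25e-05 and 0.00140). Of 16 genes for superoxide dismutases, catalases and peroxiredoxins none was higher and 2 were lower.

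Metal genes moved individually, with 4 of 16 higher and 3 lower (25% and 18.8% beside 6.97% and 9.14% of all genes). The higher count was 2 without EV + P-80 replicate 1 or EV + vehicle replicate 4. *ftn-1* (WBGene00001500; V, 7546468 to 7547579), for the iron store ferritin, had 17, 18.8, 19.2 and 17 CPM with P-80, against 9.12, 6.27, 8.62 and 9.55 CPM with vehicle. *zipt-2.3* (WBGene00013207; II, 13712906 to 13715879), for a zinc transporter, had 7.04, 6.09, 7.71 and 6.10 CPM with P-80, against 2.61, 3.52, 2.82 and 3.22 CPM with vehicle. *mtl-2* (WBGene00003474; V, 14018270 to 14018673), for an intestinal metallothionein, had 3, 2.12, 2.53 and 2.51 CPM with P-80, against 7.88, 7.41, 7.59 and 6.51 CPM with vehicle. The first 2 were high and *mtl-2* was low in every P-80 pool, with log2FC values of 1.12, 1.15 and -1.54 (limma adjusted p = 5.67e-05, 4.01e-05 and 6.38e-06). The vesicle zinc transporter gene *cdf-2* averaged 9.32 CPM with P-80 and 14.7 CPM with vehicle, a log2FC of -0.69 (adjusted p = 0.00139).

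Genes of protein folding in the endoplasmic reticulum were slightly lower. Of 21 genes of this unfolded protein response none was higher and 9 were lower (42.9%), with a median log2FC of -0.14 and values from -0.75 to -0.02, all below 0. The count was 4 without EV + P-80 replicate 4, and 3 with samples centred on their median gene, which moved the median to -0.06. *pdi-2* (WBGene00003963; X, 4524155 to 4526536), whose protein is also a subunit of the enzyme that hydroxylates collagen, had 631, 594, 713 and 531 CPM with P-80, against 899, 740, 757 and 915 CPM with vehicle. *dnj-27* averaged 21.9 CPM with P-80 and 36.7 CPM with vehicle, and *hsp-4*, for the chaperone BiP, 433 CPM with P-80 and 505 CPM with vehicle. The groups were apart in these 3 genes, with log2FC values of -0.43, -0.75 and -0.22 (limma adjusted p = 0.00232, 6.44e-04 and 0.00678). *hsp-4* missed the threshold when centred (adjusted p = 0.0530). *xbp-1*, for the transcription factor of the pathway, averaged 172 CPM with P-80 and 185 CPM with vehicle and did not pass (adjusted p = 0.161).

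Of 12 genes of the mitochondrial unfolded protein response 4 were lower and none higher. The count was 2 without any of EV + P-80 replicates 1, 2 and 4, EV + vehicle replicates 1, 2 and 4, *ech-6* RNAi + P-80 replicate 4 or *ech-6* RNAi + vehicle replicates 2 and 4, and 0 with samples centred on their median gene. *hsp-6* averaged 461 CPM with P-80 and 516 CPM with vehicle, and *hsp-60* 521 CPM with P-80 and 585 CPM with vehicle. Both encode mitochondrial chaperones and had a log2FC of -0.17 (limma adjusted p = 0.00285 and 0.00690), with adjusted p of 0.264 and 0.255 after centring. Of 20 cytosolic heat shock genes 2 were higher and 1 lower, and of 33 proteasome genes none was called by limma or with voom weights (2 had an unadjusted p under 0.05).

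Many genes of the cuticle, the hypodermis and the molt fell. Of 21 body shape collagen genes, those whose mutants are dumpy, blistered, squat or roller worms, 19 were lower and none higher, with a median log2FC of -1.47. Of the 11 molting and larval markers 11 were lower (median -1.55), of 10 hypodermis markers 9 (median -1.31), of 79 hedgehog-related and patched-related genes 40 (median -0.88), of 51 astacin protease and molting genes 26 (median -0.47), and of 44 cuticlin and apical matrix genes 16 (median -0.57). Each share was well above the 9.14% of all genes that were lower. The lists share genes, so their counts are not separate results. The hypodermis markers include the collagen genes *dpy-7*, *dpy-5*, *sqt-3*, *rol-6* and *bli-1*, and the molting markers include *ptr-4*, *wrt-10* and *noah-1*.

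*mlt-11* (WBGene00012186; V, 20667205 to 20678537), for a protease inhibitor needed in molting, had 57.7, 75.3, 84.4 and 20.3 CPM with P-80, against 232, 137, 158 and 251 CPM with vehicle. *sqt-3* (WBGene00005018; V, 12352745 to 12354320), a cuticle collagen gene, had 85.7, 83.5, 109 and 30.4 CPM with P-80, against 244, 147, 166 and 234 CPM with vehicle. *noah-1* (WBGene00016422; I, 5874416 to 5878958), for a protein of the apical matrix, had 72.9, 86.8, 93.9 and 26.8 CPM with P-80, against 232, 151, 174 and 252 CPM with vehicle. The order of samples was alike in the 3 genes: P-80 replicate 4 was far below the other P-80 pools, vehicle replicates 1 and 4 were above vehicle replicates 2 and 3, and the groups did not overlap. The log2FC values by limma were -1.85, -1.47 and -1.65 (adjusted p = 0.00120, 0.00278 and 0.00143), with standard errors of 0.34, 0.30 and 0.31.

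*bli-1* (WBGene00000251; II, 10708960 to 10712156), a collagen gene of the struts of the adult cuticle, had 33.7, 45.4, 49.1 and 15 CPM with P-80, against 144, 83.2, 89.5 and 151 CPM with vehicle. *dpy-5* (WBGene00001067; I, 5432197 to 5433051), a more abundant collagen gene, had 344, 285, 412 and 144 CPM with P-80, against 694, 522, 545 and 716 CPM with vehicle. The same order held, with P-80 replicate 4 lowest. Limma gave log2FC values of -1.79 (adjusted p = 5.77e-04) and -1.15 (adjusted p = 0.00431). *dpy-7*, *rol-6* and *bli-6* fell by 1.95, 1.51 and 0.87 on the log2 scale (limma adjusted p = 0.00245, 0.00388 and 0.00345).

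*lrp-1* (WBGene00003071; I, 7614176 to 7634143), for a megalin-like receptor needed to shed the cuticle, had 580, 587, 624 and 399 CPM with P-80, against 1066, 769, 841 and 1078 CPM with vehicle. *E01G4.6* (WBGene00008448; II, 13482405 to 13485780) had 282, 264, 350 and 98.9 CPM with P-80, against 837, 457, 517 and 838 CPM with vehicle. Both were low in every P-80 pool and lowest in replicate 4. By limma the log2FC values were -0.78 (adjusted p = 6.63e-04) and -1.50 (adjusted p = 0.00378).

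The other cuticle and molting genes followed. *mlt-10*, *ptr-4* (a patched-related gene), *wrt-10* (a hedgehog-related gene), *lpr-3* (a lipocalin of the apical matrix) and *fbn-1* (a fibrillin-like matrix gene) fell by 1.53, 1.44, 1.98, 1.96 and 1.74 on the log2 scale (limma adjusted p from 0.00152 to 0.00375). *lin-42*, a period-like gene that times the molts, averaged 7.86 CPM with P-80 and 17.8 CPM with vehicle, and *nhr-25*, for a nuclear receptor of molting, 0.946 CPM with P-80 and 2.17 CPM with vehicle (log2FC values -1.25 and -1.19, adjusted p = 0.00246 and 0.00218). The molting receptor gene *nhr-23* averaged 29.7 CPM with P-80 and 34.2 CPM with vehicle, and *nas-37*, for the protease that opens the old cuticle, 30.6 CPM with P-80 and 38.9 CPM with vehicle. These 2 changed least, by -0.20 and -0.34 (adjusted p = 0.0317 and 0.0438), and lost their calls in several settings, with adjusted p up to 0.255 for *nhr-23* when centred and 0.169 for *nas-37* without EV + vehicle replicate 4. *ptr-21* (WBGene00004235; I, 550696 to 556709), another patched-related gene, had 52.1, 49.8, 57.2 and 47.2 CPM with P-80, against 98.3, 91, 92.2 and 101 CPM with vehicle. Its groups were tight, unlike those of the genes above, with a log2FC of -0.89 (SE 0.06, adjusted p = 1.49e-08).

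The collagen genes named col behaved in 2 ways. Of 141 measured, 32 were higher (22.7%) and 62 lower (44.0%), with a median log2FC of -0.46. The higher ones were abundant: 16 of the 32 reached 1000 CPM in either group, and together they held 29163 CPM with P-80 and 19385 CPM with vehicle. Of the 62 lower ones none reached 1000 CPM, and together they held 6438 CPM with P-80 and 11517 CPM with vehicle. *col-19* (WBGene00000608; X, 421707 to 422691), a gene of the adult cuticle, had 1634, 1601, 1452 and 1821 CPM with P-80, against 1031, 1209, 1276 and 1002 CPM with vehicle. *col-140* averaged 2313 ± 244 CPM with P-80 and 1499 ± 197 CPM with vehicle, and the adult gene *col-7* 322 ± 6.86 CPM with P-80 and 248 ± 30.3 CPM with vehicle. None of the 3 overlapped, and the limma log2FC values were 0.53, 0.63 and 0.38 (adjusted p = 9.08e-05, 8.33e-05 and 6.03e-04).

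The largest rises among abundant collagen genes were near 2-fold or above. *col-8* (WBGene00000597; III, 7019583 to 7020600) had 522, 531, 376 and 620 CPM with P-80, against 198, 267, 287 and 178 CPM with vehicle, and *col-142* (WBGene00000715; V, 6831177 to 6832256) had 407, 423, 326 and 511 CPM with P-80, against 174, 230, 244 and 160 CPM with vehicle. In both, P-80 replicate 4 was the highest and vehicle replicates 1 and 4 were the lowest, the reverse of the order seen in *mlt-11* and *sqt-3*. The log2FC values by limma were 1.14 and 1.05 (adjusted p = 1.25e-04 and 7.73e-05), beside 1.62 for *col-143* (adjusted p = 6.33e-04) and -1.10 for *col-73* (adjusted p = 0.00475). *grd-3*, a hedgehog-related gene that rose where 40 of its list fell, averaged 54.7 CPM with P-80 and 28.1 CPM with vehicle (log2FC 0.96, adjusted p = 7.71e-05). Collagen genes share repeated sequence, so reads of close copies may have been lost or misassigned.

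This order of samples ran through most of the large falls. Among the 454 genes that averaged at least 1 CPM and fell at least 2-fold, P-80 replicate 4 was the lowest P-80 sample in 419 (92.3%), beside 30.2% of the 13940 genes of that level. Vehicle replicates 1 and 4 were both above vehicle replicates 2 and 3 in 372 of the 454 (81.9%), beside 22.8%, and both patterns held in 355 (78.2%), beside 12.4%. In the 88 of them that belong to a cuticle or molting list both held in 83 (94.3%), and in the 366 that belong to none they held in 272 (74.3%). The median SD within a group was 0.71 (log2) with P-80 and 0.31 with vehicle in the 454 genes, beside 0.13 with P-80 and 0.11 with vehicle in all genes of that level. Among the 59 genes that rose at least 2-fold at that level, P-80 replicate 4 was the highest P-80 sample in 27 and the lowest in 4. Both sets of genes were selected by the difference of the group means, to which these replicates contributed. The shares are therefore partly set by the selection.

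The summed level of the 11 molting and larval markers was 350, 406, 456 and 170 CPM with P-80, against 1050, 662, 749 and 1134 CPM with vehicle. The 21 body shape collagens summed to 1632, 1530, 2122 and 760 CPM with P-80, against 3970, 2739, 2911 and 3883 CPM with vehicle. The groups were apart in both sums, and the pools within a group also differed widely. The part that a difference in developmental timing between pools plays in these falls, or in the rises of yolk, oocyte and adult collagen genes that run the other way, was not tested.

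**Figure D4:**
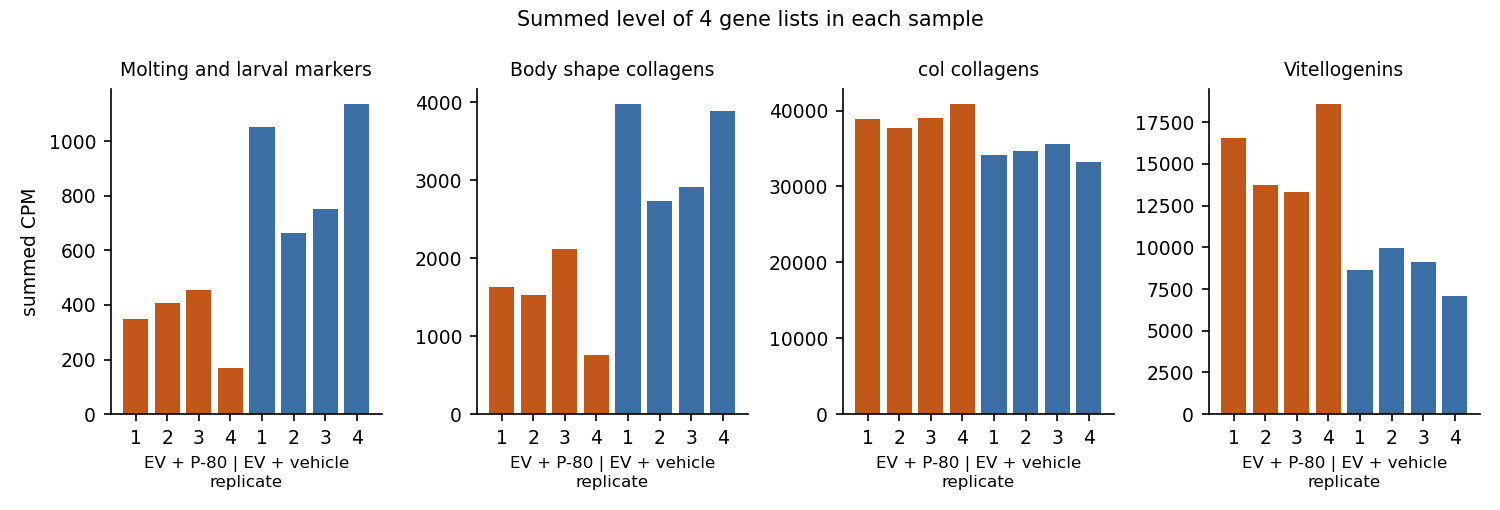
Summed CPM of 4 gene lists (vertical axes, from 0) in each replicate of EV + P-80 (orange) and EV + vehicle (blue). The molting and larval markers range from 170 to 456 CPM with P-80 and from 662 to 1134 CPM with vehicle, and P-80 replicate 4 is the lowest pool in the molting and body shape lists and the highest in the col and vitellogenin lists.

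Of 26 oocyte and eggshell genes 18 were higher (69.2% beside 6.97% of all genes) and none lower, with a median log2FC of 0.28, and the P-80 samples all lay above the vehicle samples in 3 of them, beside 8.20% of all genes. The count of higher genes was 2 without EV + vehicle replicate 4, 3 without EV + P-80 replicate 4, 4 without EV + vehicle replicate 1 and 7 without EV + P-80 replicate 2, and it was 4 without a variance trend and 9 with a robust fit or among the EV samples alone. *perm-2* (WBGene00016636; IV, 1126790 to 1128865), for a protein of the eggshell barrier, had 104, 106, 97.7 and 144 CPM with P-80, against 64.9, 72.9, 76.3 and 55.1 CPM with vehicle. It did not overlap, and its limma log2FC was 0.74 (adjusted p = 1.50e-04). *cpg-1*, for an eggshell chondroitin proteoglycan, averaged 440 ± 57.5 CPM with P-80 and 353 ± 32.9 CPM with vehicle. Its log2FC of 0.31 (adjusted p = 0.0193) missed the threshold without EV + P-80 replicate 4 (adjusted p = 0.0776), EV + vehicle replicate 1 (0.0747) or EV + vehicle replicate 4 (0.0712).

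Of 96 genes for major sperm proteins and other sperm products 38 were higher (39.6%) and none lower, with a median log2FC of 0.25, and 24 were higher without EV + vehicle replicate 1 or 4. Many of these genes are near-identical copies. Of 13 germline markers 1 was higher, and their sum was 2218 to 2463 CPM with P-80 and 2166 to 2358 CPM with vehicle. Early zygotic genes mark embryos inside the worms. Of 22 listed, 10 were measured and 2 averaged at least 1 CPM over the EV samples. The 10 summed to 14 to 16 CPM with P-80 and 13 to 16 CPM with vehicle. None was called by limma or with voom weights, and none had an unadjusted p under 0.05. Most averaged under 1 CPM, so the list says little about embryo content.

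Markers of other tissues moved less than those of the hypodermis, many of which are cuticle genes also counted in the lists above. Of 11 intestine markers 1 was higher and 2 lower, and their sum was 2815 to 3357 CPM with P-80 and 2957 to 3118 CPM with vehicle. Of 9 body wall muscle markers 2 were higher, of 13 neuron markers 2 lower (0 without EV + P-80 replicate 4, EV + vehicle replicate 1 or EV + vehicle replicate 4), and of 11 pharynx markers 3 higher and 1 lower. The neuron markers summed to 284 to 307 CPM with P-80 and 311 to 329 CPM with vehicle. The part of tissue proportions in the results was not tested.

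Of 58 transthyretin-related genes, which encode small secreted proteins, 20 were higher (34.5%) and 1 lower, with a median log2FC of 0.22. *ttr-15* (WBGene00011561; III, 10337847 to 10339440) had 257, 257, 236 and 266 CPM with P-80, against 172, 201, 207 and 175 CPM with vehicle, and *ttr-42* averaged 7.65 CPM with P-80 and 4.40 CPM with vehicle. Both were separate between the groups, with limma log2FC values of 0.43 and 0.78 (adjusted p = 6.75e-05 and 0.00122). Of 222 nuclear hormone receptor genes 5 were higher (2.25%) and 22 lower (9.91%), with a median log2FC of -0.05. With samples centred on the median gene 10 were higher and 13 lower, with a median of 0.04, and quantile normalization gave 9 higher. The higher count was 2 without EV + vehicle replicate 1 and 3 without EV + P-80 replicate 1, 2 or 4 or EV + vehicle replicate 2 or 4. The lower count was 10 without EV + P-80 replicate 4, 11 without EV + vehicle replicate 1, and 12 without EV + P-80 replicate 1 or EV + vehicle replicate 4.

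*nhr-8* (WBGene00003607; IV, 7710983 to 7714210), for a receptor that in worms acts in sterol and xenobiotic responses, had 9.30, 9.23, 8.33 and 6.69 CPM with P-80, against 15.6, 15, 16.2 and 17.3 CPM with vehicle. *nhr-117* (WBGene00003707; V, 1619415 to 1621520) had 25.6, 21.8, 21.9 and 25 CPM with P-80, against 10.2, 10.6, 14.5 and 12.5 CPM with vehicle. They moved in opposite directions without overlap, by -0.94 and 0.99 on the log2 scale (limma adjusted p = 3.48e-05 and 9.75e-06).

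**Figure D5:**
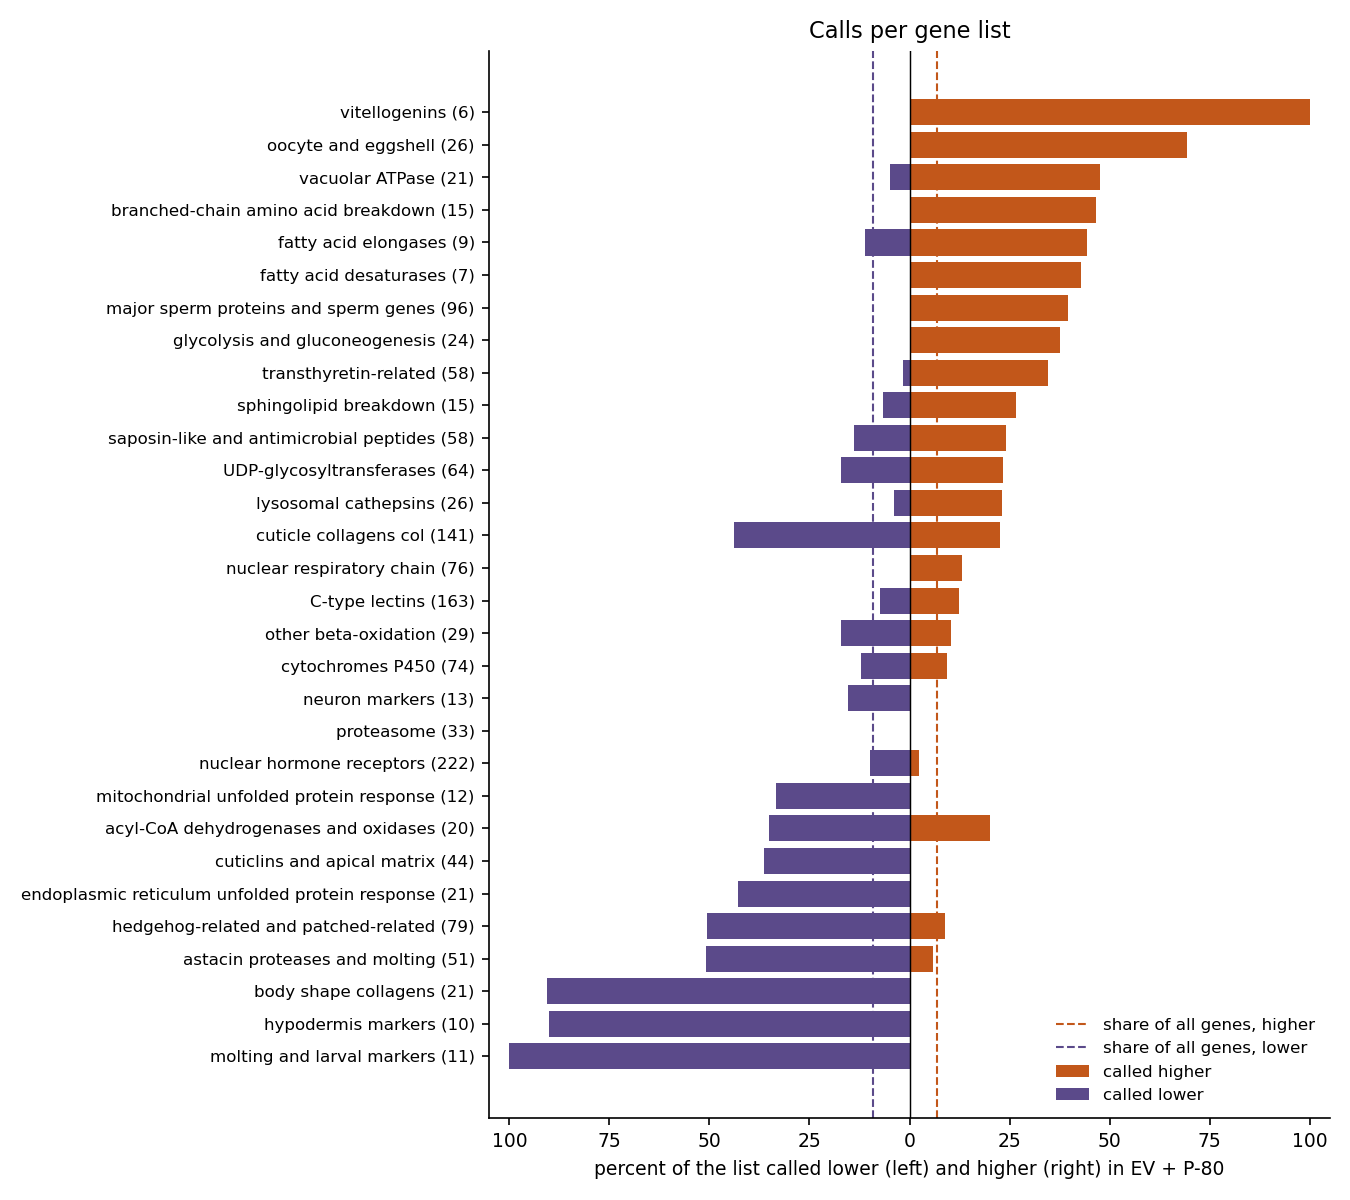
Percent of the measured genes of 30 gene lists called lower (bars to the left) and higher (bars to the right) in EV + P-80 against EV + vehicle, with the number measured in brackets and dashed lines at the shares of all genes, 9.14% lower and 6.97% higher. Vitellogenins (6 of 6) and oocyte genes (18 of 26) lie furthest to the right, and molting markers (11 of 11), hypodermis markers (9 of 10) and body shape collagens (19 of 21) furthest to the left. Some lists share genes, so their bars are not separate results.

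Whether the response depended on *ech-6* was asked of the same genes with the interaction term of the fit, the log2FC of P-80 in worms on *ech-6* RNAi minus that in EV worms. No gene of the 19750 had an adjusted p under 0.05 (0.00% by limma's moderated test), while 1168 (5.91%) had an unadjusted p under 0.05. Fits with voom weights, with robust variances, on genes of at least 1 CPM and on log2(CPM + 1) gave 1 gene each. Of the 138 genes named here, 130 were called in EV worms and 103 in *ech-6* RNAi worms, where 7.21% of all genes were called, and 34 had an unadjusted interaction p under 0.05. Genes were named largely for their change in EV worms, so these counts do not measure how far the response depended on *ech-6*. The smallest adjusted p was that of *elo-2* (0.0511): its log2FC was 0.49 in EV worms and 0.05 in *ech-6* RNAi worms.

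*C17F4.7* changed by -4.40 on the log2 scale in *ech-6* RNAi worms, beside -4.46 in EV worms, *gba-4* by -2.10 beside -2.05, and *F42A10.7* by 2.12 beside 2.20. *asp-17* changed by -1.68 in *ech-6* RNAi worms, beside -2.43 in EV worms, *B0024.4* by -2.18 beside -2.69, and *fat-5* by 2.99 beside 2.40. For *vit-5* the values were 0.81 in *ech-6* RNAi worms and 1.04 in EV worms, and for *asm-3* 1.5 and 1.86. The adjusted interaction p of these 8 genes ran from 0.842 (*B0024.4*) to 0.979 (*gba-4*). *acdh-2* had a log2FC of 0.63 in *ech-6* RNAi worms and 1.51 in EV worms, *gst-41* of 0.20 and 1.39, and *lipl-4* of 1.01 and -0.01. The limma adjusted p of the interaction was 0.810 for *acdh-2*, 0.265 for *gst-41* and 0.764 for *lipl-4*. None of these differences passed the test, which does not show that the responses were equal.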

How the data were processed

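RNA of whole day 1 adult worms was sequenced in 16 samples, 4 in each of 4 groups. According to the labels and the study's methods, reads were checked with FastQC, trimmed with Trimmomatic 0.32, aligned with HISAT2 2.0.4 and counted per gene with HTSeq 0.6.1, with read direction and default parameters, on Ensembl release 91. The authors removed genes that did not exceed 2 counts in 4 or more samples, and deposited log2 CPM with TMM (trimmed mean of M-values) normalization, made with edgeR and limma. The column heading of the table says CPM, while the values reach below 0 and are log2. Reads computed back from them were whole within 0.01 reads in 100.0% of values. Library totals are given above; counting error was not modelled apart from the spread between samples. Coordinates and names are from Ensembl release 115 (WBcel235), and 85 genes had no entry there.

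Here limma 3.58.1 (R 4.3.3) was fitted to the deposited log2 CPM of all 19750 genes and all 16 samples, with 1 mean per group and a mean-variance trend. The P-80 contrast in EV worms and the interaction were tested with Benjamini-Hochberg adjustment over all genes (threshold 0.05). Groups were called not overlapping when all 4 values of one lay above all 4 of the other. In data simulated for EV + P-80 against EV + vehicle over 19750 genes, 96 of 100 genes changed 2-fold and 40 of 100 changed 1.5-fold were recovered, with 8 false calls. The simulation used the same fixed dispersion for every gene, not estimated from these data, and changed far fewer genes than were called here. The exact permutation test used SciPy 1.17.1, and tables and plots used Python 3.11.15, pandas 2.3.3, NumPy 2.4.6 and matplotlib 3.10.9.

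Genes were named by this rule: among called genes averaging at least 0 log2 CPM in EV worms with groups that did not overlap, the 10 highest and 10 lowest log2 fold changes; the 5 highest and 5 lowest among those averaging at least 8; the 5 largest rises and falls in CPM; the 10 widest gaps; the highest and lowest called gene of each list and the members of lists of up to 10 genes; and *ech-6* and the genes the study names. Not every gene the rule gives is described. The groups compared, the rule and the gene lists were chosen with earlier results of these data known. Alternatives were no trend, a robust fit, the 8 EV samples alone, voom weights on the reads computed back, sample weights, only genes of at least 1 CPM, quantile normalization, centring on the median gene, log2(CPM + 1), the replicate number as a block, and leaving out each sample.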

Additional observations from a re-analysis of the deposited data

Results flagged for a closer look

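In 12 of 276 groups of 4 samples examined (138 genes, 2 groups each; 4.35%), a single sample stood apart from the other 3, by Dixon's test of its gap to the nearest against the whole range (95% level). Chance alone gives about 1 group in 20. Of these samples 4 were EV + P-80 replicate 4, 3 were EV + P-80 replicate 2, and EV + P-80 replicate 1 and each EV + vehicle replicate gave 1.

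EV + P-80 replicate 4 was low in *lrp-1* (399 CPM, the others 580 to 624), *cnc-3* (0.963, the others 1.59 to 1.72) and *hsp-60* (503, the others 525 to 529), and high in *clec-5* (51.5, the others 45.3 to 46.2). EV + P-80 replicate 2 was low in *cpr-1* (53.5 CPM, the others 72.2 to 73.7), *F42A10.7* (67.3, the others 78.1 to 79.9) and *lipl-4* (0.839, the others 1.44 to 1.59). EV + P-80 replicate 1 was high in *T16G1.7* (29.6 CPM, the others 24.6 to 25.3).

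Among the vehicle pools, replicate 4 was low in *cpr-5* (229 CPM, the others 252 to 255). Replicate 1 was high in *asp-12* (1.5 CPM, the others 1.07 to 1.14), replicate 2 in *cgt-3* (103 CPM, the others 95.5 to 96.5) and replicate 3 in *ceh-60* (15.9 CPM, the others 15.2 to 15.3). What set these samples apart was not tested.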

How the results depend on the processing

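Centring each sample on its median gene gave 2361 genes higher (1377 on the TMM scale), 63.43% of calls higher, and 2557 genes that were higher without overlap. On log2(CPM + 1), 35 genes were called at least 2-fold higher and 285 at least 2-fold lower. The interaction, with 0 genes in limma, gave 1 gene with a robust fit, 1 with voom weights, 1 among genes of at least 1 CPM and 1 on log2(CPM + 1). With single samples left out, genes called higher ranged over 831 to 1578, lower 1152 to 2151, at least 2-fold lower 283 to 757, list members called higher 206 to 326 (206 without EV + vehicle replicate 4), interaction genes 0 to 2 (2 without EV + P-80 replicate 4), genes not overlapping and higher 1859 to 2595 (2595 without EV + P-80 replicate 3, where fewer samples had to lie apart), and the log2 fold change of *ech-6* 0.1685 to 0.3094. Without *ech-6* RNAi + vehicle replicate 3 *ech-6* passed at 0.2464 (adjusted p = 0.0334).

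Over the 138 named genes and 26 settings, 3516 of 3588 values kept their direction and side of the threshold, 56 lost the call, 11 gained it and 5 changed sign. These 5 were *lipl-4*, never called, at 0.1201 with quantile normalization, 0.07295 when centred, 0.1934 without EV + P-80 replicate 2, 0.1181 without EV + vehicle replicate 3 and 0.009682 without EV + vehicle replicate 4, within a range of -0.1215 to 0.1934 over samples left out. The causes were not tested. The other named genes kept their direction in every setting, and 120 also kept their call.

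With the replicate number as a block, 1357 genes were higher and 1814 lower, 81 and 571 at least 2-fold, 42.8% of calls were higher, 323 and 321 list members were called, and the log2 fold change of *ech-6* was 0.2464. With it *cpr-1* gained the call (adjusted p = 0.0226) and *nas-37* lost it (0.0532). Same-numbered EV samples did not deviate together (correlations 0.040, -0.040, -0.24 and -0.29), so the numbers pair nothing here. In the simulation 40 of 100 genes changed 1.5-fold were recovered, at a dispersion not estimated from these data. Genes below 1 CPM rest on few reads.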

Other observations

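Of 74 histone genes 6 were higher and 14 lower (8.11% and 18.9%), with a median log2 fold change of -0.06. The higher count was 2 without EV + P-80 replicate 4 or EV + vehicle replicate 1 or 4, and with samples centred on the median gene it was 10, with a median of 0.02. Of 81 ribosomal protein genes 5 were higher and 1 lower, with a median of 0.04. Centring gave 20 higher and none lower, and quantile normalization gave 14 lower. The higher count was 2 without EV + P-80 replicate 1 or EV + vehicle replicate 4, and 3 without EV + P-80 replicate 4 or EV + vehicle replicate 3. Of 101 neuropeptide genes 3 were higher and 2 lower. Of 29 muscle myosin and actin genes 6 were higher and none lower (3 higher without EV + P-80 replicate 4). Of 29 insulin-like peptide genes 1 was higher and none lower. That call was lost with the replicate block, with a robust fit, among the EV samples alone, with voom weights and when any 1 of 9 of the 16 samples was left out, and in no gene of the list did all P-80 samples lie above all vehicle samples. Of 16 core genes of insulin signaling 2 were higher and 1 lower.

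For propionate breakdown, 2 of 7 genes of the propionate shunt (28.6%) and 2 of 9 genes of the B12-dependent route (22.2%) were higher, beside 6.97% of all genes, and none was lower in either. The shunt count was 1 among the EV samples alone and without EV + P-80 replicate 1, EV + P-80 replicate 4 or EV + vehicle replicate 4. Of 8 genes for phenylalanine and tyrosine breakdown 2 were higher and 1 lower.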
